A study of Caenorhabditis elegans with 30 samples.

Results

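The genes described here are the cuticle collagen genes of Caenorhabditis elegans whose symbols start with col-. Members were all probe sets that the array annotation assigned to exactly 1 gene with such a symbol, which gave 87 probe sets with names ending in _at, 32 ending in _s_at and 25 ending in _x_at, of 22548 non-control probe sets in all. The rule uses no measured value, although it was set with earlier results of these data known. A further 17 probe sets were shared by several genes of which at least 1 was a col- gene, among them those for col-7 and col-62, col-10 and col-144, and col-12 and col-13, and these were left out. Of the member genes, 16 had a pair of probe sets, and 2, col-66 and col-182, are annotated as pseudogenes.

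The cuticle is the outer coat of the worm. It is secreted by the hypodermis, the epidermis of the worm, and it is made anew at each molt. Its main proteins are short collagens with Gly-X-Y repeats, which are hydroxylated in the endoplasmic reticulum, assembled into trimers, cut by proteases after secretion and cross-linked by tyrosine bonds. Most collagen genes are transcribed in waves within each larval molt, so transcripts of many of them are low in adults, whereas a smaller set, of which col-19 is the standard marker, is switched on in adults. Loss of certain cuticle collagens gives short, dumpy (dpy) animals.

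The arrays measured RNA of whole, synchronized young adults grown at 20 °C and picked with a worm sorter. The 5 mutant groups carried the alleles dpy-9(e12), dpy-10(e128), osm-8(n1518), osm-11(n1604) or osm-7(n1515) and were kept on 51 mM NaCl throughout. All 5 are osmotic stress resistant strains. The products of dpy-9 and dpy-10 are themselves cuticle collagens, osm-8 encodes a mucin-like protein, and osm-7 and osm-11 encode secreted proteins related to Notch ligands. The wild-type strain N2 was kept on 51 mM NaCl (isotonic) or exposed to 200 mM NaCl for 15 min, 1 h, 6 h or 1 generation, the last meaning growth from the start of larval life to adulthood on high salt. Each of the 10 groups had 3 arrays. There was a single isotonic N2 group, so the time since transfer and the salt cannot be told apart within the short exposures. In whole worms, fewer cells of a type and less RNA per cell cannot be told apart either. The study describes replicates as independent preparations, and the labels do not say whether these came from separate cultures, so p-values measure only the spread between these samples, which may be in part technical.

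Values are log2 of the deposited intensities, and a difference of 1 is a doubling. Intensities depend on the probes as well as on the RNA, so levels are compared between groups and not between genes. Within the groups, the correlations between arrays over the tested probe sets lay between 0.983 and 0.996. The mutated genes gave a limited check of the labels. The brighter osm-11 probe set read 11.18, 10.78 and 10.98 in osm-11 animals, against 8.63, 8.30 and 8.48 in N2, and was thus higher in its own mutant. The other osm-11 set was higher there too, by 1.85 rather than 2.51. Those of osm-7, osm-8 and dpy-9 did not pass the test in their own mutants (adjusted p = 1.0, 0.323 and 0.107 in limma), and dpy-10 had no probe set of its own. The osm-7 and osm-8 sets lay near background in mutant and N2 alike, between 2.32 and 3.37, so a loss could not show there. Whether the alleles alter the probed transcripts is not given in the sources used here.

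A probe set was tested when at least 3 of the 30 arrays reached a floor of log2 3.24, an intensity of 9.47. This kept 58 of the _at, 27 of the _s_at and 24 of the _x_at sets of the col- genes, and 61.5% of all non-control probe sets, and left out 35 col- sets. Of those tested, 80 reached the floor on all 30 arrays. For 8 of them (col-58, col-79, col-109, col-131, col-137, col-152, col-172 and col-186) only osm-8 or dpy arrays reached it, so these passed only through groups in which they were high. They are included in the counts below, although for them a difference from N2 was bound to appear. A probe set was called when the adjusted p in limma was at most 0.01 and the change at least 3-fold, log2 1.585. Names ending in _s_at or _x_at mark probes that can also bind related transcripts, so in a family of similar sequences their values may hold signal of more than 1 gene.

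**Figure D1:**
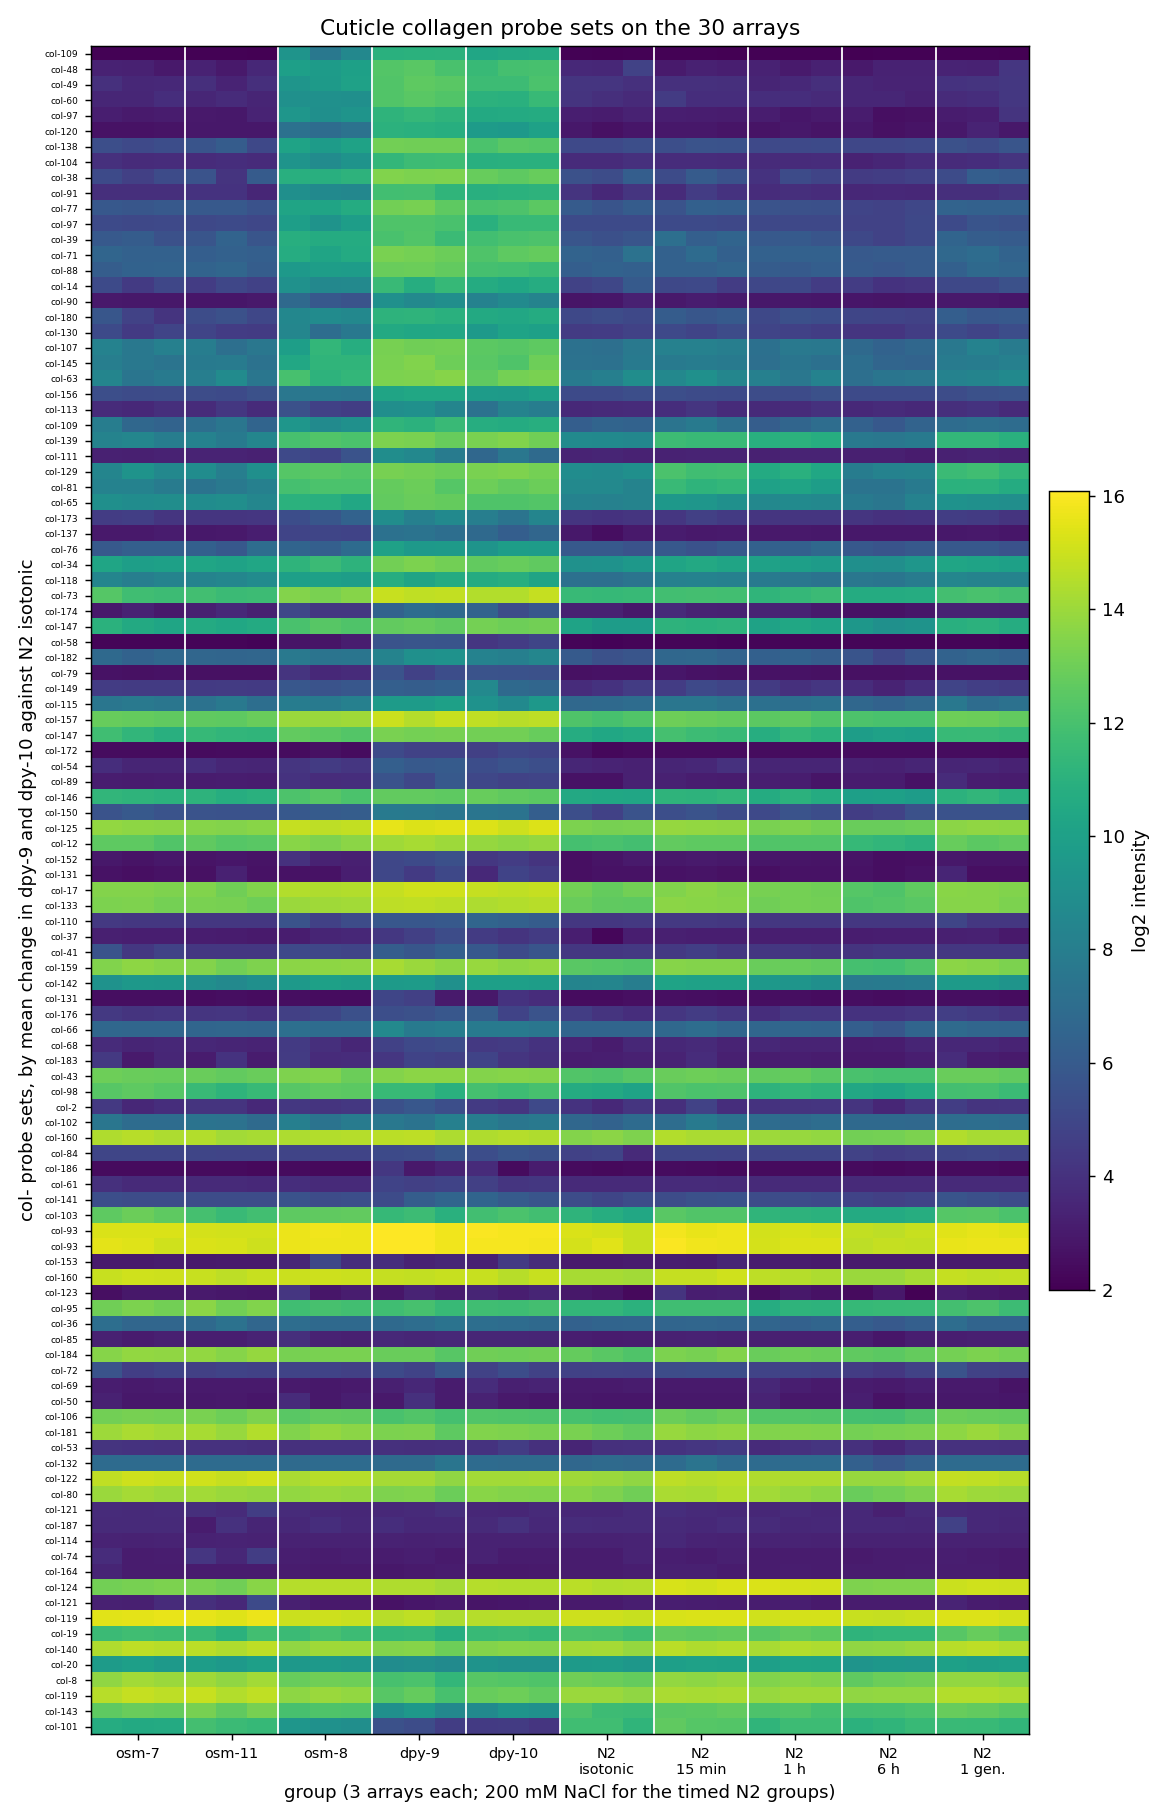
Log2 intensity (colour) of the tested col- probe sets (rows, ordered by their mean change in dpy-9 and dpy-10 against N2 isotonic) on the 30 arrays (columns, 3 per group). The upper rows are dark in N2, osm-7 and osm-11 and bright in osm-8, dpy-9 and dpy-10, and the bottom rows, col-143 and col-101, are darkest in the dpy mutants.

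In the dpy-9, dpy-10 and osm-8 mutants many col- genes were far above N2. In dpy-9, 61 col- probe sets were called higher and 2 lower, against 16.0% and 7.98% of all tested probe sets. In dpy-10, 57 were called higher and 2 lower, with 18.1% and 10.2% over all tested probe sets. In osm-8, 42 were called higher and 1 lower, with 7.91% and 0.887% over all. As shares of all member probe sets, tested or not, the higher calls made up 42.4% in dpy-9, 39.6% in dpy-10 and 29.2% in osm-8. The other mutants differed from N2 in few col- genes. In osm-7, 3 were called higher and 0 lower (1.85% and 0.267% of all tested), and in osm-11, 1 was called higher and 0 lower (3.18% and 0.216%). At adjusted p alone, with no fold threshold, 24 were higher and 2 lower in osm-7 (5.62% and 2.09% of all tested), and the same numbers were reached in osm-11 (8.50% and 4.98%). By the same criterion dpy-9 had 79 higher and 8 lower (26.2% and 35.7%), dpy-10 had 78 and 7 (28.8% and 35.8%) and osm-8 had 68 and 1 (16.9% and 21.6%).

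The median log2 change of the tested col- probe sets was 1.99 in dpy-9, 1.74 in dpy-10 and 1.01 in osm-8, where the medians over all tested probe sets were −0.23, −0.22 and −0.16. It was 0.17 in osm-7 and 0.19 in osm-11, beside −0.07 and −0.11 over all. Taken over all member probe sets without the filter, the medians were 1.00 in dpy-9, 0.95 in dpy-10 and 0.63 in osm-8. The groups also separated array by array. All 3 dpy-9 arrays lay above all 3 N2 arrays for 84 col- probe sets and below them for 11 (30.6% and 48.3% of all tested). The same held for 89 and 11 in dpy-10 (32.6% and 47.4%), and for 78 and 1 in osm-8 (24.1% and 39.8%).

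**Figure D2:**
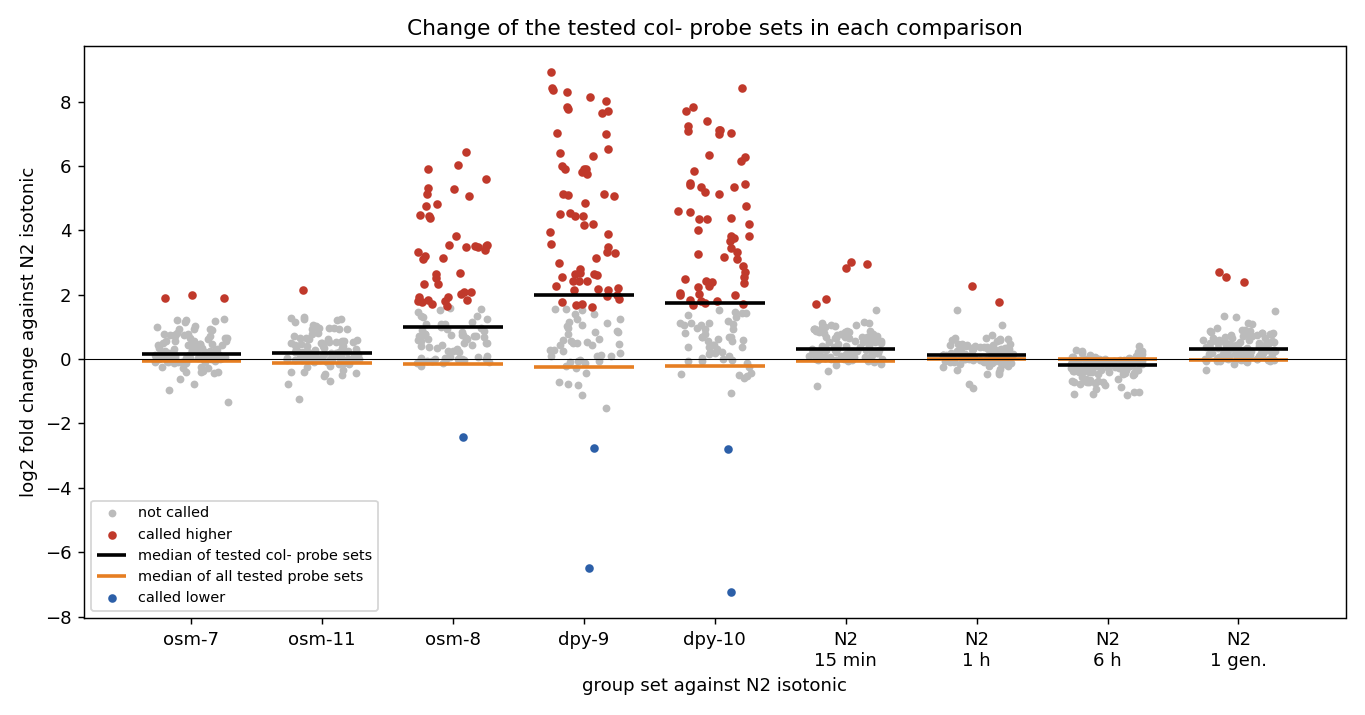
Log2 fold change against N2 isotonic (vertical axis) of the tested col- probe sets (points) in the 5 mutants and the 4 exposures, with probe sets called higher in red and called lower in blue. Black lines are medians of the tested col- probe sets and orange lines medians of all tested probe sets, and the black line lies highest in dpy-9, at 1.99.

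The genes with the largest changes were near the floor in N2 and among the bright probe sets in the dpy mutants. The col-48 probe set read 12.32, 12.51 and 12.05 in dpy-9, 11.51, 11.92 and 12.01 in dpy-10, with 9.93, 9.74 and 9.99 in osm-8, against 3.64, 3.56 and 4.76 in N2. Its change was 8.30 in dpy-9, 7.82 in dpy-10 and 5.90 in osm-8 (SE 0.261 each, adjusted p in limma 1.69e-13, 3.97e-13 and 3.63e-11), which is 316-fold, 227-fold and 59.6-fold. The osm-8 arrays formed a level of their own between the dpy mutants and N2, with no overlap on either side. The 3 osm-7 arrays, at 3.34, 3.32 and 2.99, and the 3 osm-11 arrays, at 3.34, 2.99 and 3.56, lay at or below the N2 range.

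The same order of groups was seen in col-49 and col-60. The col-49 probe set read 12.29, 12.61 and 12.47 in dpy-9, 11.67, 11.64 and 12.11 in dpy-10, with 9.37, 9.68 and 10.08 in osm-8, against 4.20, 4.19 and 3.94 in N2. The folds over N2 were 326 in dpy-9, 207 in dpy-10 and 48.4 in osm-8. Across the 30 arrays the profiles of col-48 and col-49 ran together (Pearson r = 0.995, a description over arrays that share their groups, for 1 of 6 pairs looked at). The col-60 probe set read 12.24, 12.49 and 12.24 in dpy-9, 11.03, 10.94 and 11.51 in dpy-10, with 9.06, 9.07 and 9.02 in osm-8, against 4.12, 3.90 and 3.70 in N2. On the osm-7 arrays col-60 read 3.51, 3.50 and 3.86, and on the osm-11 arrays 3.54, 3.72 and 3.48. The osm-7 and osm-11 values of col-60 thus lay within or below the N2 range, and no array of these groups came near osm-8.

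For a probe set of each of 3 further genes the N2 mean lay below the floor, so that the folds are lower bounds, taken against the floor. The _at probe set of col-97 read 11.14, 11.38 and 11.14 in dpy-9, 10.57, 10.62 and 10.66 in dpy-10, with values between 9.0 and 9.43 in osm-8, against 3.19, 3.09 and 3.37 in N2. It was at least 252-fold higher in dpy-9, at least 166-fold in dpy-10 and at least 63.8-fold in osm-8. The col-120 probe set read 11.06, 10.93 and 10.84 in dpy-9, 9.73, 9.60 and 10.04 in dpy-10, with 7.26, 6.99 and 7.29 in osm-8, against 2.90, 2.64 and 2.85 in N2. It was at least 208-fold higher in dpy-9, at least 93.5-fold in dpy-10 and at least 15.3-fold in osm-8.

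The third of these genes, col-109, had a pair of probe sets that gave different sizes of change. With the lower-reading set the arrays read 10.94, 10.99 and 11.06 in dpy-9, 10.35, 10.52 and 10.60 in dpy-10, with 9.32, 7.65 and 8.58 in osm-8, against 2.06, 2.05 and 2.11 in N2, or at least 216-fold, 152-fold and 38.7-fold higher. This set passed the filter only through the dpy and osm-8 arrays, so a difference there was bound to appear. With the other set, where N2 averaged 6.41, the changes were 4.85, 4.35 and 2.65. Both were called higher in the 3 mutants, and the distance between N2 and the mutants depended on the probe set.

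**Figure D3:**
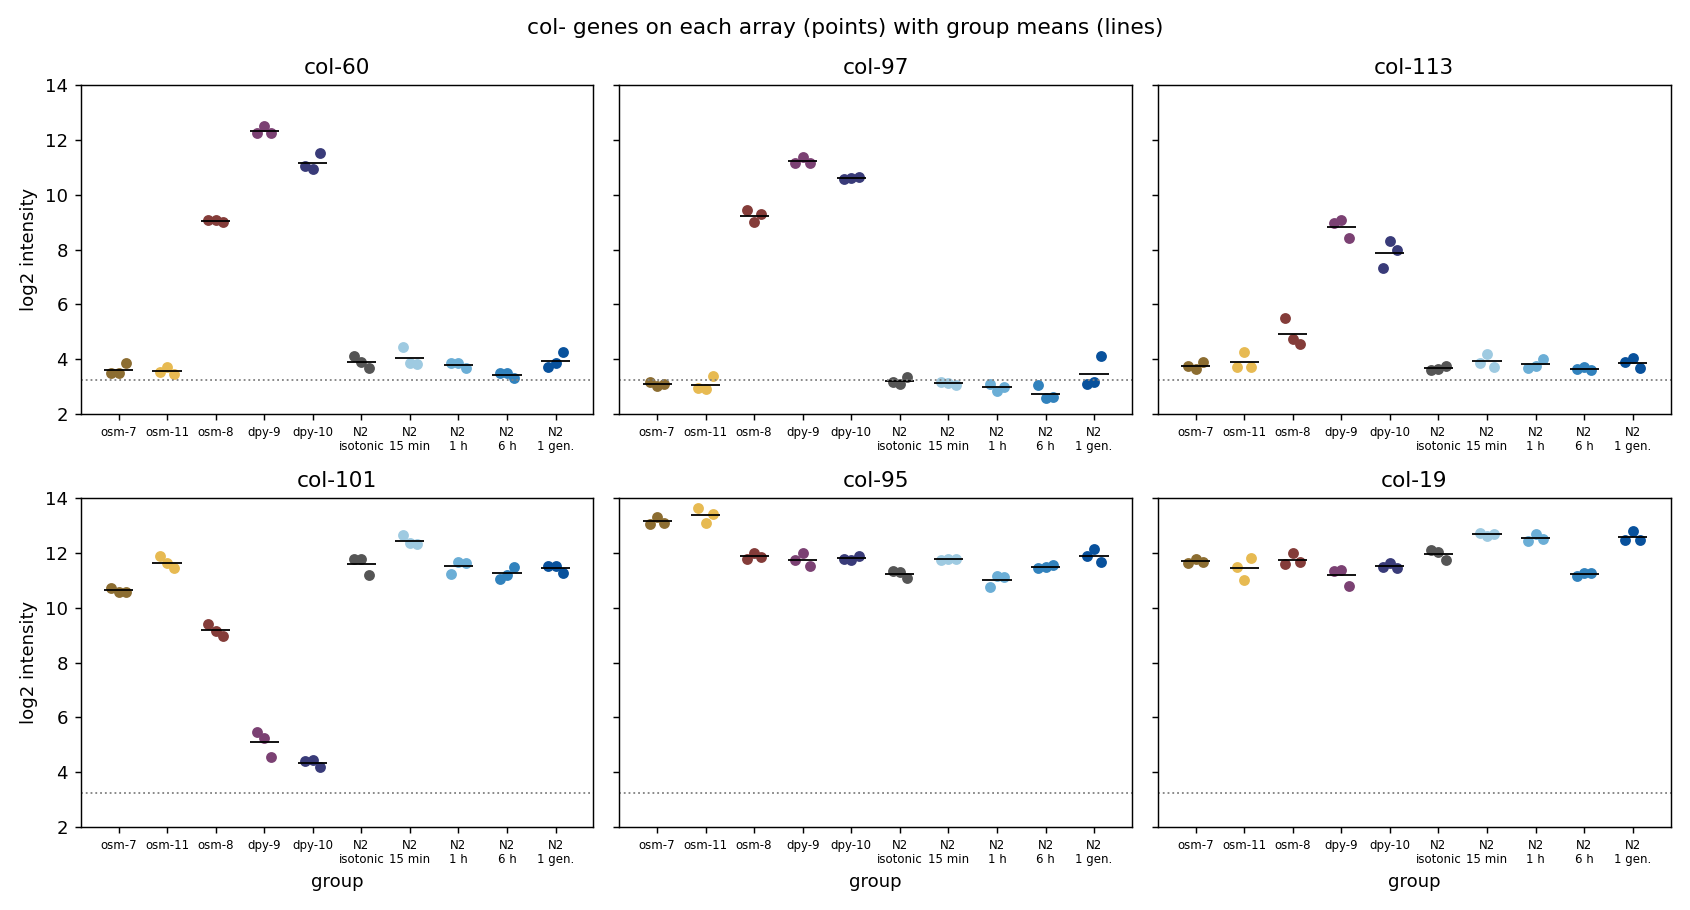
Log2 intensity of 6 col- genes on each of the 3 arrays of the 10 groups (points) with group means (short lines), and the floor of log2 3.24 as a dotted line. For col-60, col-97 and col-113 the dpy mutants lie highest, for col-101 they lie lowest, col-95 is highest in osm-7 and osm-11, and col-19 stays between 10.8 and 12.8 on all arrays.

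For description the called genes were grouped by mutant. These comparisons share the 3 N2 isotonic arrays, so the size of a group called in several mutants is not itself a result. The largest group, 40 probe sets for 37 genes, was called higher in dpy-9, dpy-10 and osm-8. Besides the genes above it held col-14, col-34, col-38, col-39, col-63, col-65, col-71, col-73, col-77, col-81, col-88, col-90, col-91, col-104, col-107, col-111, col-118, col-129, col-130, col-137, col-138, col-139, col-145, col-146, col-147, col-149, col-156, col-157, col-173, col-180 and col-182. The median of its group means was 12.31 in dpy-9, 11.79 in dpy-10, 9.80 in osm-8, 5.57 in osm-7 and 5.71 in osm-11, against 5.65 in N2. The col-73 probe set averaged 14.81 ± 0.08 in dpy-9, 14.59 ± 0.22 in dpy-10 and 13.40 ± 0.15 in osm-8, against 11.48 ± 0.04 in N2 (SD, n = 3 each), and rose by 3.33, 3.11 and 1.92. The col-38 probe set averaged 13.38 ± 0.08 in dpy-9, 12.76 ± 0.12 in dpy-10 and 10.97 ± 0.13 in osm-8, against 5.65 ± 0.49 in N2. The pseudogene col-182 was in the group too, with changes of 3.13, 2.54 and 1.80. The col-137 set and the lower-reading col-109 set passed the filter only through osm-8 or dpy arrays, so a difference there was bound to appear. Membership in osm-8 rested on few arrays for 3 genes. Without osm-8 replicate 3, col-111 (1.78) moved to 1.58 and col-173 (1.71) to 1.41, and without N2 isotonic replicate 1, col-149 (1.64) moved to 1.48, all below the fold threshold.

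A second group of 15 probe sets was called higher in both dpy mutants and not in osm-8, namely those of col-12, col-17, col-54, col-58, col-76, col-79, col-89, col-113, col-115, col-125, col-131, col-133, col-150, col-172 and col-174. Some of these lay just under the fold threshold in osm-8, such as col-12 with a change of 1.57, col-125 with 1.52 and col-17 with 1.45, so that a missing call is not a missing difference. Others lay further below it there. The col-76 probe set read 10.06, 9.60 and 9.68 in dpy-9, with 9.28, 9.86 and 9.78 in dpy-10, against 5.94, 5.94 and 5.58 in N2, while the osm-8 arrays read 6.53, 6.29 and 6.91 (change in osm-8 0.76, adjusted p = 0.0187 in limma). The col-113 probe set read 8.95, 9.09 and 8.43 in dpy-9, with 7.31, 8.30 and 7.99 in dpy-10, against 3.62, 3.66 and 3.75 in N2, with 5.52, 4.74 and 4.55 in osm-8. Some sets of this group passed the filter only through groups in which they were high, so a difference there was bound to appear. Among them, those of col-58 and col-172 did so through dpy arrays alone, and that of col-79 through osm-8 or dpy arrays. The col-58 set read 5.61, 5.69 and 5.67 in dpy-9, with 4.21, 4.52 and 4.92 in dpy-10, while N2 stayed below the floor on all arrays, and the difference was at least 5.33-fold and 2.47-fold. A further 6 probe sets, of col-2, col-37, col-41, col-68, col-131 and col-152, were called higher in dpy-9 alone. Those of col-110 and col-142 were called in dpy-10 and not in dpy-9. Here too a missing call is not a missing difference. In dpy-10 the 6 sets changed by 1.53 (col-152), 1.46 (col-37), 1.32 (col-41), 1.07 (col-131, _at set), 0.95 (col-68) and 0.63 (col-2). In dpy-9 the col-110 set changed by 1.57 and the col-142 set by 1.25. The col-152 set, too, passed the filter only through osm-8 or dpy arrays, and the _at set of col-131 through dpy arrays alone. For both a difference was bound to appear. Of the dpy-9 calls, col-2, known as a collagen of the dauer larva, lay closest to the threshold (1.61). It was lost without dpy-9 replicate 2 (1.48) or N2 isotonic replicate 2 (1.44). The dpy-9 calls of col-37, col-68 and the _at set of col-131 were also lost in fits with an array left out. In dpy-10, calls of col-37 and col-152 were gained in such fits.

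The question whether the dpy mutants differed from osm-8 was tested directly. Against osm-8, the mean of dpy-9 and dpy-10 was called higher for 34 col- probe sets and lower for 2 (5.87% and 1.49% of all tested). The tested col- probe sets had a median difference of 0.75, and adjusted p alone passed 65 higher and 11 lower (18.5% and 15.9%). The largest was that of col-113, 3.41 (SE 0.234, 10.6-fold, adjusted p = 1.29e-08 in limma). It was followed by col-120 (3.19, 9.10-fold), col-76 (3.13, 8.75-fold), col-60 (2.69, 6.46-fold) and col-138 (2.67, 6.37-fold). Not all genes of the shared group differed in this way. The col-129 probe set differed by 0.79 and col-81 by 0.75, both under the fold threshold. For col-97 the call rested on osm-8 replicate 2, without which the difference on its _at set was 1.56 rather than 1.68, and for col-34 on osm-8 replicates 1 and 3 (1.58 and 1.56 rather than 1.65). The calls of col-63 (1.75) and col-65 (1.74) were lost without osm-8 replicate 2 (1.56) and replicate 3 (1.58).

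Likewise osm-8 was set against osm-7 and osm-11, the other mutants of the osm class. Here 32 col- probe sets were called higher in osm-8 and 1 lower (4.49% and 0.923% of all tested), with a median difference of 0.70, and adjusted p alone passed 57 higher and 8 lower (11.2% and 6.79%). The largest differences were in col-48 (6.63, 99.1-fold), col-109 (6.45 on its lower-reading set, at least 38.7-fold), col-97 (6.15 on the _at set, at least 63.8-fold), col-49 (5.99, 63.4-fold) and col-38 (5.83, 56.8-fold). The col-60 difference was 5.45 (SE 0.141, adjusted p = 6.74e-14 in limma). The call for col-73, at 1.59, lay at the threshold and was lost in 6 of the fits with an array left out, and that of col-147, at 1.66, fell to 1.55 without osm-8 replicate 2.

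Transcripts of other tissues and stages moved with these groups. The sperm list held the major sperm protein (msp) genes, small sperm-specific (ssp) genes and spe genes, of which 33 of 34 were tested. Of these, 30 were called higher in dpy-9, 29 in dpy-10, 29 in osm-8, 0 in osm-7 and 0 in osm-11. Over all tested probe sets these shares were 16.0%, 18.1%, 7.91%, 1.85% and 3.18%. Their summed intensity was 317803 to 352497 in dpy-9, 256149 to 273897 in dpy-10, 190139 to 214263 in osm-8, 6843 to 10422 in osm-7 and 11573 to 27892 in osm-11, against 11190 to 23988 in N2. All 10 oocyte and embryo genes, among them the yolk receptor gene rme-2, were called lower in both dpy mutants (7.98% in dpy-9 and 10.2% in dpy-10 over all tested), and none was called in osm-8. Their sum was 21379 to 27235 in dpy-9, 19863 to 22358 in dpy-10 and 52195 to 55698 in osm-8, against 96699 to 103586 in N2.

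Of the molting genes, 11 of 12 were tested, and 10 were called higher in dpy-9, 9 in dpy-10, 7 in osm-8, 3 in osm-7 and 4 in osm-11. Their sum was 2043 to 3107 in dpy-9, 1994 to 2224 in dpy-10, 757 to 1050 in osm-8, 254 to 442 in osm-7 and 404 to 1070 in osm-11, against 153 to 176 in N2. The order of the groups in the sperm sums, with dpy-9 highest, then dpy-10, then osm-8, was that of the median over the shared group of collagens. Within that group, dpy-9 averaged above dpy-10 in 33 of the 40 probe sets, and both dpy mutants averaged above osm-8 in all 40. In osm-11 the molting sum reached the osm-8 range on at least 1 array, while col-60 stayed at the N2 level. The part of these marker genes in the collagen differences was not tested. The sorter gate was set to leave out the last larval stage and younger animals. How it was applied to the short dpy animals is not given in the sources used here.

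**Figure D4:**
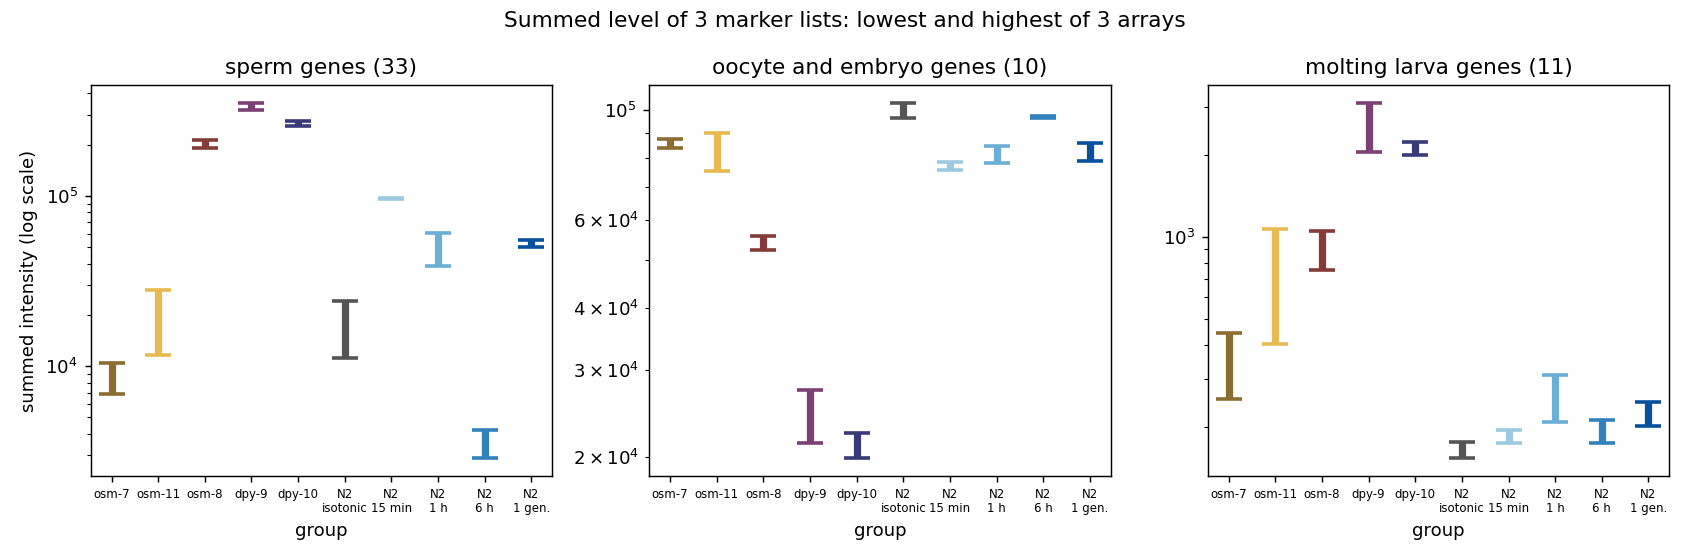
Summed intensity (log scale) of the sperm (33), oocyte and embryo (10) and molting larva (11) genes, drawn from the lowest to the highest of 3 arrays in each of the 10 groups. The sperm and molting sums are highest in the dpy mutants, and the oocyte and embryo sum is lowest there. Among the N2 groups the sperm sum is highest at 15 min and lowest at 6 h.

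For the remaining lists of genes counts stand beside higher and lower calls among all tested probe sets of 16.0% and 7.98% in dpy-9, 18.1% and 10.2% in dpy-10, with 7.91% and 0.887% in osm-8, 1.85% and 0.267% in osm-7, and 3.18% and 0.216% in osm-11. Of 7 hypodermis genes, 3 were called higher in dpy-9, 4 in dpy-10, 4 in osm-8, 0 in osm-7 and 1 in osm-11. Their sum was 2132 to 2789 in dpy-9, 2530 to 3034 in dpy-10 and 1709 to 2003 in osm-8, against 1336 to 1373 in N2. Of 8 body wall muscle genes, 4, 5 and 2 were called higher in dpy-9, dpy-10 and osm-8, with none in osm-7 or osm-11. Of 7 tested neuron genes, the higher calls were 3 in dpy-9, 4 in dpy-10, 3 in osm-8, 1 in osm-7 and 1 in osm-11. Of 9 tested intestine genes, 1 was called higher and 3 lower in dpy-9, 1 higher in dpy-10, and none in osm-8, osm-7 or osm-11.

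Only 2 col- genes were called lower in any mutant. The col-101 probe set read 5.47, 5.26 and 4.55 in dpy-9, 4.42, 4.45 and 4.19 in dpy-10, with 9.42, 9.14 and 8.98 in osm-8 and 10.73, 10.58 and 10.59 in osm-7, against 11.78, 11.79 and 11.21 in N2. The osm-11 arrays, at 11.87, 11.62 and 11.43, overlapped N2. Its levels thus stepped down over osm-7, osm-8 and the dpy mutants without overlap. In osm-8 it fell by 2.41 (SE 0.218, 5.32-fold, adjusted p = 1.78e-07 in limma), and in osm-7 the difference of −0.96 (adjusted p = 0.00691) stayed under the fold threshold. The dpy mean was lower than osm-8 by a further 21.9-fold (−4.46), and osm-8 was lower than osm-7 and osm-11 by 3.89-fold (−1.96).

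The second was col-143, which read 9.03, 9.53 and 8.57 in dpy-9, with 8.68, 9.27 and 9.10 in dpy-10, against 12.17, 11.65 and 11.63 in N2. It fell by 2.77 in dpy-9 (SE 0.232, 6.83-fold, adjusted p = 2.57e-08 in limma) and by 2.80 in dpy-10 (6.94-fold, adjusted p = 1.95e-08). In osm-8 it read 12.13 ± 0.11 on average (SD, n = 3) and did not pass the test (change 0.31, adjusted p = 0.272). In osm-7 it read 12.59, 12.85 and 12.74, and in osm-11 13.18, 12.67 and 13.20. For col-143 the dpy arrays thus lay below all N2 arrays and the osm-7 and osm-11 arrays above them, while osm-8 overlapped N2. The dpy mean was lower than osm-8 by 8.55-fold (−3.10).

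In osm-7 and osm-11 few col- genes were called higher. The col-95 probe set, an _x_at set, read 13.04, 13.31 and 13.10 in osm-7 and 13.65, 13.10 and 13.43 in osm-11, against 11.34, 11.31 and 11.08 in N2. The change was 2.15 in osm-11 (SE 0.155, 4.43-fold, adjusted p = 5.22e-08 in limma) and 1.91 in osm-7 (3.75-fold, adjusted p = 2.84e-07). In dpy-9, dpy-10 and osm-8 it read between 11.52 and 12.01, above N2 but below osm-7 and osm-11 on every array, and osm-8 lay below the osm-7 and osm-11 mean by 1.39, which is under the fold threshold. Removal of any 1 array left the osm-11 count at 1.

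The other pair was col-98 and col-103. The col-98 probe set read 12.45, 12.57 and 12.38 in osm-7, 12.44, 12.60 and 12.56 in osm-8 and 11.53, 11.14 and 11.49 in osm-11, against 10.68, 10.56 and 10.16 in N2. It rose by 2.00 in osm-7 and 2.07 in osm-8. The col-103 probe set read 12.60, 12.91 and 12.59 in osm-7, 12.57, 12.65 and 12.72 in osm-8 and 11.92, 11.53 and 11.81 in osm-11, against 11.15, 10.78 and 10.46 in N2, and it rose by 1.90 and 1.85. These were the only col- genes called higher in osm-8 and in neither dpy mutant. Their dpy values lay between osm-8 and N2 for nearly all arrays, 10.96 to 11.99 for col-98 and 10.94 to 12.09 for col-103. Over the 30 arrays their profiles ran closely together (Pearson r = 0.963, as a description).

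In N2 on 200 mM NaCl few col- genes passed the fold threshold. At 15 min 5 were called higher and 0 lower (1.28% and 0.274% of all tested). At 1 h 2 were higher and 0 lower (0.981% and 0.166%), at 6 h none was called (0.700% higher and 0.663% lower over all), and after 1 generation 3 were higher and 0 lower (0.959% and 0.224%). An F test over the 4 exposures called 5 higher and 0 lower (2.29% and 0.606%). The 4 comparisons share the isotonic arrays. In limma, the only tool run, p under 0.05 before adjustment gave 59 higher and 1 lower at 15 min (12.3% and 23.8% of all tested), 31 and 4 at 1 h (13.4% and 12.3%), 1 and 44 at 6 h (11.5% and 9.20%), and 54 and 0 after 1 generation (12.9% and 13.4%). The F test at adjusted p alone passed 53, with 14.9% over all.

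The 3 genes with the largest changes were col-129, col-139 and col-81, all measured by _s_at probe sets. The col-129 probe set read 8.85, 8.75 and 9.03 in isotonic N2, 12.08, 11.77 and 11.80 at 15 min, 10.62, 10.93 and 10.40 at 1 h, 7.91, 8.24 and 8.31 at 6 h and 11.62, 11.77 and 11.33 after 1 generation. It was highest at 15 min, lay below the isotonic values at 6 h and was high again in animals raised on salt, with no overlap between the isotonic arrays and any of the exposures. Its change was 3.01 at 15 min (SE 0.161, 8.05-fold, adjusted p = 2.37e-07 in limma), 1.77 at 1 h and 2.70 after 1 generation (6.49-fold, adjusted p = 4.76e-07).

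The other genes of the trio followed the same course. The col-139 probe set read 8.72, 8.68 and 8.54 in isotonic N2, 11.68, 11.53 and 11.57 at 15 min, 10.90, 11.08 and 10.80 at 1 h, 7.72, 7.60 and 7.82 at 6 h and 11.34, 11.33 and 10.97 after 1 generation. It rose by 2.94 at 15 min (7.69-fold), 2.28 at 1 h (4.85-fold) and 2.56 after 1 generation (5.91-fold), and at 6 h its difference was −0.94 (adjusted p = 0.000108). The col-81 probe set rose by 2.83 at 15 min (7.11-fold) and by 2.38 after 1 generation (5.22-fold). At 1 h its change of 1.54 lay just outside the threshold, and it was called (1.59 to 1.63) without 1 h replicate 3 or without isotonic replicate 1 or 2. Over the 30 arrays the 3 profiles correlated with r of 0.990 to 0.992, as a description. As _s_at sets they may hold signal of the same transcripts, and whether they do was not tested. All 3 belong to the group called higher in dpy-9, dpy-10 and osm-8, where col-129 rose by 4.20, 4.38 and 3.50. In osm-7 and osm-11 their differences from N2 were between −0.77 and −0.13, and none was called.

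The other 2 genes called at 15 min were col-142 and col-98. The col-142 probe set read 8.37, 8.39 and 7.97 in isotonic N2, 10.20, 10.08 and 10.06 at 15 min, 9.53, 9.35 and 9.01 at 1 h, 7.69, 7.75 and 7.92 at 6 h and 9.70, 9.69 and 9.31 after 1 generation. It rose by 1.87 at 15 min (3.65-fold, adjusted p = 6.48e-06 in limma). The col-98 probe set read 10.68, 10.56 and 10.16 in isotonic N2, 12.27, 12.12 and 12.17 at 15 min, 11.13, 11.32 and 11.15 at 1 h, 10.44, 10.24 and 10.64 at 6 h and 11.86, 11.96 and 11.63 after 1 generation. It rose by 1.72 at 15 min, and the call was lost without isotonic replicate 3 (1.57). Just outside the threshold at 15 min was col-103, at 1.54, which passed (1.71) without isotonic replicate 1. After 1 generation col-103 was again the nearest gene outside, at 1.50.

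**Figure D5:**
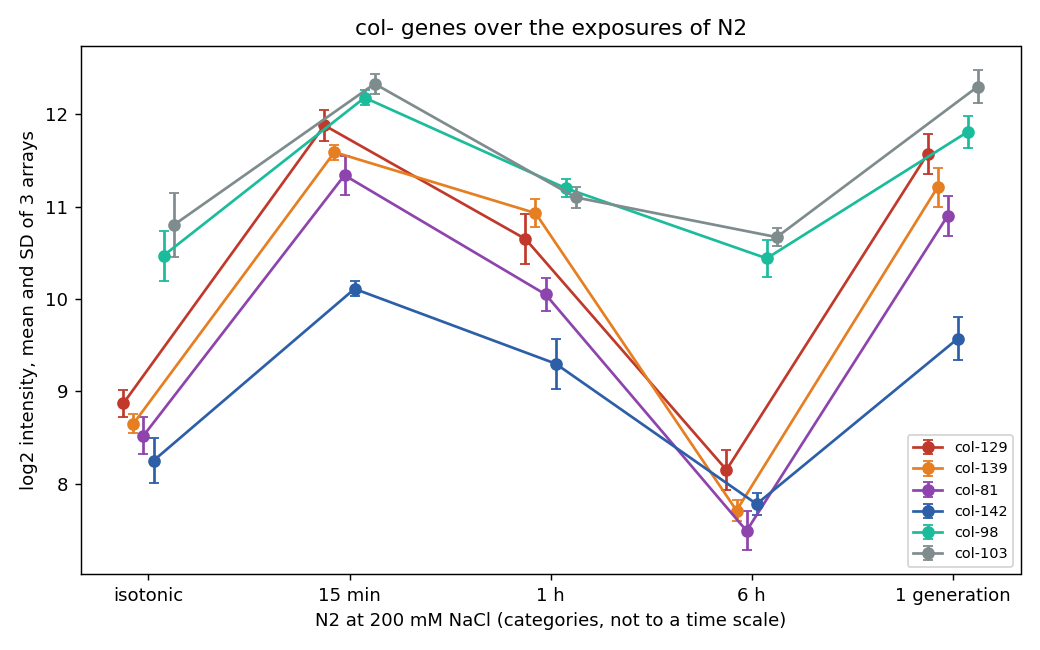
Log2 intensity of 6 col- genes in N2 (mean and SD of 3 arrays) at isotonic salt and after 15 min, 1 h, 6 h and 1 generation at 200 mM NaCl, shown as categories and not on a time scale. All 6 are highest at 15 min, fall to the isotonic level or below it at 6 h and lie above it again after 1 generation.

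Without the fold threshold more col- probe sets passed. At adjusted p alone, 43 col- probe sets were higher and 0 lower at 15 min (5.86% and 6.24% of all tested), and 10 were higher and 0 lower at 1 h (4.85% and 2.15%). At 6 h 0 were higher and 11 lower (3.89% and 1.82%), and after 1 generation 36 were higher and 0 lower (5.76% and 1.95%). All 3 arrays lay above the isotonic arrays for 60 col- probe sets at 15 min (12.2% of all tested) and for 49 after 1 generation (12.8%), and below them for 40 at 6 h (10.3%). In the other direction there were 1 at 15 min (21.5%), 0 after 1 generation (12.7%) and 2 at 6 h (12.3%). The median change of the tested col- probe sets was 0.31 at 15 min, 0.12 at 1 h, −0.18 at 6 h and 0.30 after 1 generation. The medians over all tested probe sets lay between −0.07 and −0.01.

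The contrast of 6 h with 15 min, which does not use the isotonic arrays, called 0 col- probe sets higher and 10 lower (0.260% and 1.23% of all tested). At adjusted p alone 0 were higher and 52 lower (5.29% and 3.87%), and all 6 h arrays lay below all 15 min arrays for 79 and above them for 0 (12.3% and 29.0%). Before adjustment, at p under 0.05, 0 were higher and 75 lower (23.9% and 9.50%). The 10 probe sets were those of col-39, col-81, col-98, col-103, col-124, col-129, col-139 and col-142 and both of col-147. The largest falls were 3.88 for col-139 (14.7-fold, adjusted p = 9.34e-10 in limma), 3.85 for col-81 (14.4-fold) and 3.73 for col-129 (13.3-fold). The call of col-39 was lost without 15 min replicate 1 (−1.44).

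The sperm genes followed the same course in N2. Of the 33 tested, 26 were called higher at 15 min, 12 at 1 h and 17 after 1 generation, and 21 were called lower at 6 h. Over all tested probe sets these shares were 1.28%, 0.981%, 0.959% and 0.663%. Their sum was 11190 to 23988 in isotonic N2, 95852 to 97652 at 15 min, 38991 to 60935 at 1 h, 2874 to 4200 at 6 h and 50142 to 55063 after 1 generation. The molting genes summed to 153 to 176 in isotonic N2, 175 to 194 at 15 min and 208 to 309 at 1 h. At 6 h the sum was 175 to 211, and after 1 generation 202 to 246. All arrays at 1 h and after 1 generation thus lay above the isotonic ones. Of the 11 tested, 3 were called higher, all at 1 h (0.981% of all tested probe sets), and 6 had isotonic means below the floor. No oocyte and embryo gene, no muscle gene and no neuron gene was called at any exposure. Yet the oocyte and embryo sum, 96699 to 103586 in isotonic N2, was lower at 15 min (75752 to 78791), 1 h (78386 to 84563) and 1 generation (79154 to 85877). At 6 h it was 96442 to 97539. The muscle sum, 27064 to 29225 in isotonic N2, was higher at 15 min (31989 to 35275), 1 h (35795 to 41592) and 1 generation (34119 to 38420). At 6 h the muscle sum was 26679 to 26929. The hedgehog-related hypodermis gene grd-3 was called higher at 15 min, and 1 intestine gene was called lower. The part of the sperm genes and of the other marker genes in the collagen differences was not tested.

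The 30 col- probe sets with a mean of log2 11 or more over all arrays, among them both sets of col-93 and of col-119, had a median change of 0.71 at 15 min, 0.34 at 1 h, −0.27 at 6 h and 0.71 after 1 generation. Only col-98 of these passed the fold threshold, at 15 min. At adjusted p alone, 29 of the 30 were higher at 15 min and 27 after 1 generation, and 7 were lower at 6 h. By that criterion the shares over all tested probe sets were 5.86%, 5.76% and 1.82%. The 47 with a mean below log2 6 had medians of 0.11, 0.01, −0.04 and 0.09, and none passed adjusted p alone at any exposure. In the mutants 27 of these 47 were called higher in dpy-9, 22 in dpy-10 and 12 in osm-8. Of the 30 bright ones 9 were called higher in dpy-9, 9 in dpy-10 and 7 in osm-8. The 32 sets between these classes had the most such calls for their number, 25 in dpy-9, 26 in dpy-10 and 23 in osm-8, and 4 at 15 min. Over all tested probe sets 16.0%, 18.1% and 7.91% were called higher in these mutants, and 1.28% at 15 min. The means behind the classes include the mutant arrays, so the classes are not independent of the calls. The col-93 sets, at up to 16.09, lay at the upper end of the table (16.1).

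The adult marker col-19 was among the genes called in none of the 9 comparisons with isotonic N2. It read 12.12, 12.02 and 11.75 in isotonic N2, 12.72, 12.62 and 12.69 at 15 min, 12.43, 12.68 and 12.52 at 1 h, 11.15, 11.26 and 11.26 at 6 h and 12.45, 12.79 and 12.47 after 1 generation. At 6 h its difference was −0.74 (adjusted p = 0.000669 in limma). It was 11.35, 11.38 and 10.80 in dpy-9, 11.47, 11.62 and 11.45 in dpy-10, with 11.75 ± 0.22 (mean and SD, n = 3) in osm-8, with differences from N2 of −0.79, −0.45 and −0.21. The dpy-9 and dpy-10 arrays thus lay below all N2 isotonic arrays, with differences of the means under a doubling, while genes of the shared group such as col-60 lay far above theirs.

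The col-124 probe set read 13.08, 13.20 and 13.33 in osm-7, 13.28, 13.02 and 13.58 in osm-11 and 13.37, 13.44 and 13.43 in N2 at 6 h of salt, against 14.64, 14.47 and 14.52 in isotonic N2. All of these 9 arrays were below the isotonic range. The differences were −1.34 in osm-7, −1.25 in osm-11 and −1.13 at 6 h, with adjusted p in limma of 2.69e-06, 4.46e-06 and 4.95e-07, and they were the largest downward differences of a col- gene in each of these comparisons, all under the fold threshold. In dpy-9, dpy-10 and osm-8 it stayed between 14.18 and 14.59. At 15 min it read 15.24, 15.14 and 15.29.

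For col-119 the dpy mutants lay below N2 and osm-7 and osm-11 above it, by amounts that differed between its sets. On its _s_at set it read 12.42, 12.77 and 11.97 in dpy-9, with 12.80, 12.99 and 12.73 in dpy-10, against 13.99, 13.98 and 13.73 in N2, with differences of −1.51 and −1.06. On its _x_at set the differences were −0.43 and −0.42. In osm-7 and osm-11 the differences were 0.81 and 0.81 on the _s_at set and 0.54 and 0.55 on the _x_at set. None passed the fold threshold, although dpy-9 did so on the _s_at set without dpy-9 replicate 2 (−1.70) or without N2 isotonic replicate 3 (−1.60).

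Of the 16 genes with a pair of probe sets, not all had both tested. Both were tested for col-93, col-97, col-109, col-119, col-121, col-131, col-147 and col-160, and none of these was called in opposite directions. In the other genes such a conflict could not arise. For col-131 in dpy-10 the _s_at set was called (1.70) and the _at set was not (1.07). Both sets were called in dpy-9, dpy-10 and osm-8 for col-97, col-109 and col-147. For col-149, col-150 and col-157 only 1 set was tested, and it was called, while the other was near background in all groups (differences of −0.08 to 0.20). Of the 35 col- probe sets that were not tested, none reached the floor on more than 2 arrays, among them both sets of col-56, col-75 and col-99. By type of probe set, higher calls in dpy-9 were made for 32 of 58 _at sets, 16 of 27 _s_at sets and 13 of 24 _x_at sets, and in osm-8 for 21, 12 and 9. Over all tested probe sets, not split by type, the shares were 16.0% and 7.91%.

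Position in the genome was taken from the gene order of a RefSeq annotation. Tested members of the group called higher in dpy-9, dpy-10 and osm-8 were 5 of 11 on chromosome I, 6 of 18 on II, 5 of 11 on III, 13 of 34 on IV, 8 of 21 on V and 3 of 14 on X. Calls over all tested probe sets were not split by chromosome, so no chromosome can be called rich or poor in them. There were 19 runs of col- genes with no other gene between them, with 45 genes in all and at most 5 in a run. Neighbours did not always share a pattern. In the run of col-17, col-20 and col-73 on chromosome II, the outer genes rose in dpy-9 by 1.99 and 3.33, while col-20 differed by −0.78 and was not called. In the run of col-79, col-39 and col-80, col-79 and col-39 rose in dpy-9 by 2.55 and 6.32, and col-80 differed by −0.06. Next to col-142, col-141 differed by 0.31 at 15 min and was not called. The neighbours col-159 and col-160, with changes of 1.12 for col-159 and 0.70 and 0.86 for the sets of col-160 at 15 min, were both uncalled.

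The cuticle collagens with other names were taken as a list. Of 20 listed, 18 were tested, and 12 were called higher in dpy-9, 12 in dpy-10, 12 in osm-8, 1 in osm-7 and 2 in osm-11. Over all tested probe sets these shares were 16.0%, 18.1%, 7.91%, 1.85% and 3.18%. None was called lower and none at any exposure. Their median change was 2.64 in dpy-9, 3.08 in dpy-10 and 1.90 in osm-8. The dpy-5 gene, whose loss gives dumpy worms, changed by 8.07, 7.46 and 5.74 in these mutants. For sqt-1, a gene of body shape, the changes were 6.43, 6.45 and 4.98, and for the blister gene bli-1 they were 4.81, 5.26 and 3.28. The gene dpy-14 was called in osm-7 (3.13) and in osm-11 (4.90).

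Of 20 tested genes that process collagens, 7 were called higher and 1 lower in dpy-9, 7 and 1 in dpy-10, with 3 and 0 in osm-8, 1 in osm-7, 1 in osm-11 and 1 after 1 generation. The FK506-binding peptidyl-prolyl isomerase gene fkb-3 was higher by 5.18 in dpy-9, 4.87 in dpy-10, 3.18 in osm-8, 2.41 in osm-7 and 2.31 in osm-11, and by 1.64 after 1 generation. The prolyl 4-hydroxylase subunit gene dpy-18 rose by 3.11 in dpy-9, 2.46 in dpy-10 and 1.98 in osm-8, and the protease inhibitor gene bli-5 by 4.24 (dpy-9) and 3.06 (dpy-10). The peroxidase gene skpo-1 fell by 2.40 in dpy-9 animals and by 2.21 in those of dpy-10. The type IV collagen genes of basement membranes, emb-9 and let-2, were called higher in both dpy mutants and in no other comparison.

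Of 20 tested regulators of cuticle genes, 0 were called higher and 2 lower in dpy-9, 2 and 2 in dpy-10, with 1 and 0 in osm-8, and 2 and 0 in osm-11. The hypodermal GATA factor gene elt-3 rose by 1.91 in osm-8, 1.64 in osm-11 and 2.06 in dpy-10. In dpy-9 its difference of 1.34 (adjusted p = 0.000229 in limma) was under the fold threshold. The BMP pathway gene sma-4 rose by 1.75 in dpy-10, and lon-1 by 1.88 in osm-11. The heterochronic gene lin-41 fell by 2.80 in dpy-9 animals and by 3.22 in those of dpy-10. The molting receptor gene nhr-23 fell by 2.59 in dpy-9 and the receptor gene daf-4 by 1.77 in dpy-10. No regulator was called in osm-7 or at any exposure.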

How the data were processed

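Total RNA of 30 whole-worm samples was hybridised to Affymetrix C. elegans arrays. The authors normalized the scans by GC-RMA in Partek and deposited linear intensities of 22625 probe sets, 77 of them controls. GC-RMA sets the background by probe sequence, so values near the floor hold no order. The methods state, for the timepoints of the salt exposures, that 5 samples were prepared and the 3 with the best RNA were used. For the mutants this is not stated. Log2 was taken here. The methods' SAM test was replaced by limma 3.58.1 in R 4.3.3, with Benjamini-Hochberg adjustment over all tested probe sets, as moderated contrasts in 1 fit over the 15 N2 arrays and 1 over the 18 isotonic arrays. Tables and plots were made with Python 3.11.15, numpy 2.4.6, pandas 2.3.3 and matplotlib 3.10.9. The fit was tested on simulated data. Where a group mean lay below the floor, a bound on the fold was taken against the floor.

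The members and lists were chosen with earlier results of these data known. Named were the 5 largest rises and falls of each comparison that did not overlap, genes called in all 5 mutants or at 3 exposures, listed examples, and those at a threshold. Others, such as whole groups of calls and calls lost without 1 array, were named after their values were seen. Gene names and neighbours came from RefSeq (WBcel235). Alternatives were no filter, 32 added to intensities, quantile normalization, median centring, no _x_at or _s_at sets, 1 set per gene, 1 fit of 30 arrays, a replicate block and leaving out each array. Adjusted p alone was added after the data were seen. The number of arrays limits the precision. Same-numbered replicates of different groups did not deviate together (median r 0.018 and −0.055), so they were not paired.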

Additional observations from a re-analysis of the deposited data

Results flagged for a closer look

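Each of the following is a test of a difference between groups, not of groups against their control. The dpy-9 and dpy-10 mean differed from osm-8 in 34 col- probe sets that were higher and 2 that were lower (5.87% and 1.49% of all tested). The osm-8 mutant differed from the osm-7 and osm-11 mean in 32 that were higher and 1 that was lower (4.49% and 0.923%). In N2 at 6 h of salt, 0 were higher and 10 lower than at 15 min (0.260% and 1.23%). The sperm gene sums moved with these contrasts in the same direction, at 190139 to 214263 in osm-8 against 6843 to 10422 in osm-7 and 11573 to 27892 in osm-11, and their part was not tested.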

How the results depend on the processing

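The counts of called col- probe sets stayed within 1.5 times under no filter, 32 added, quantile normalization, median centring, 1 set per gene and 1 fit of 30 arrays. With the replicate number as a block, where no pairing held, the counts were those of the fits without it (5 at 15 min, 2 at 1 h, 0 at 6 h, 3 after 1 generation, 63 in dpy-9, 59 in dpy-10, 43 in osm-8, 3 in osm-7 and 1 in osm-11). Without _x_at and _s_at sets, which leaves fewer to test, there were 2 at 15 min, 0 at 1 h, 0 after 1 generation, 33 in dpy-9, 30 in dpy-10, 21 in osm-8, 0 in osm-11, 2 over the exposures, 20 for dpy mean against osm-8, 16 for osm-8 against osm-7 and osm-11, and 4 for 6 h against 15 min. At adjusted p alone, chosen after seeing the data, there were 43, 10, 11 and 36 at 15 min, 1 h, 6 h and 1 generation, 69 in osm-8, 26 each in osm-7 and osm-11, 53 over the exposures, 76 for dpy mean against osm-8, 65 for osm-8 against osm-7 and osm-11, and 52 for 6 h against 15 min. Leaving out 1 array gave 4 to 6 at 15 min, 2 to 3 at 1 h, 0 at 6 h, 3 to 4 after 1 generation, 60 to 65 in dpy-9, 58 to 60 in dpy-10, 41 to 45 in osm-8, 3 in osm-7, 1 in osm-11, 4 to 6 over the exposures, 35 to 37 for dpy mean against osm-8, 31 to 34 for osm-8 against osm-7 and osm-11, and 9 to 12 for 6 h against 15 min. Of 138 called changes of 30 named probe sets none reversed; 2 fell below the threshold with 32 added and 4 under quantile normalization, and 10 of 984 did so with 1 array left out. Median centring moved the median of all probe sets for 6 h against 15 min by 0.11, and no other scaling moved one by more than 0.1. Signal near the floor limits folds of dim genes.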

Other observations

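The following col- genes were called in no comparison with isotonic N2. The col-8 probe set averaged 11.80 ± 0.41 in dpy-9, 12.33 ± 0.11 in dpy-10, 12.94 ± 0.12 in osm-8, 13.96 ± 0.17 in osm-7 and 13.99 ± 0.22 in osm-11, against 12.92 ± 0.14 in N2 (SD, n = 3 each). The dpy mean differed from osm-8 by −0.87 for col-8, and osm-8 from the osm-7 and osm-11 mean by −1.04, both under the fold threshold. The col-122 probe set averaged 14.03 ± 0.26 in dpy-9, 14.15 ± 0.04 in dpy-10, 14.45 ± 0.14 in osm-8, 14.88 ± 0.15 in osm-7 and 14.99 ± 0.12 in osm-11, against 13.94 ± 0.18 in N2. Its differences in the same contrasts were −0.37 and −0.48. Both genes were chosen after their values were seen.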
